A study of Mus musculus with 12 samples.

Results

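The genes described here are 10 RNA-binding regulators of tissue-dependent alternative splicing: Mbnl1, Mbnl2, Rbfox2, Ptbp1, Ptbp2, Srrm4, Srrm3, Nova1, Elavl3 and Celf1. They were chosen by name, 10 of 54393 genes in the authors' deposited expression table, and all 10 carried one of its 21541 tests. Their entries in the authors' splicing table were 231 of 364439 events, after the first site of each alternative splice site group was set aside. Of these, 29 could be tested.

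All samples were N2a Flp-In rtTA cells. N2a is a neuroblastoma line of the mouse, rtTA is an activator of transcription that works in the presence of doxycycline, and a Sap30bp cDNA with a FLAG tag, inducible by doxycycline, sat at a Flp-In site of the cells used. There were 6 groups of 2 biological replicates, 3 in each of 2 lines: rescue (siRNA against Sap30bp plus doxycycline, which induces an siRNA-resistant cDNA), knockdown (the same siRNA without doxycycline) and control (a non-targeting siRNA without doxycycline). In the exon-3-containing line the induced cDNA held exon 3 of Sap30bp, and in the exon-3-lacking line it did not, so isoform and line are one factor. No group combined the control siRNA with doxycycline, the wells of a condition were combined before RNA extraction, and RNA was taken 72 hours after transfection. The comparisons ask whether knockdown of Sap30bp altered the level or the splicing of the regulators. They also ask whether either isoform returned the regulators to the control state. The gene encodes SAP30BP, a nuclear protein linked to pre-mRNA splicing.

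Alternative exons are included or skipped depending on which RNA-binding proteins sit on or beside them. PTBP1 represses many neuronal exons and holds back its neuronal paralogue PTBP2, while SRRM4 and SRRM3 promote the inclusion of neuronal microexons. RBFOX, MBNL, NOVA, ELAVL and CELF proteins each read their own short motif and can promote or repress an exon depending on where they bind. Many of these genes also carry alternative exons of their own, some of which are regulated by the protein they encode.

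The sequences shown here are those of the alternative exons of Mbnl1, Celf1 and Ptbp2 that the results turn on, and of the Mbnl2 counterpart of one of them. They were taken from GENCODE transcripts of the GRCm38 assembly by gene and length, while positions are those of the authors' events on mm9. Bases in capitals mark the 8 places where the paralogous 54 nt exons of Mbnl1 and Mbnl2 differ, and in Celf1 the first 12 bases, which only the longer of 2 splice forms contains.
Mbnl1 111 nt exon, chr3:60400641-60400751, plus strand: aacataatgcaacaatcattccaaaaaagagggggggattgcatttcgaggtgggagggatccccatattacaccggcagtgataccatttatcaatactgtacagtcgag
Mbnl1 54 nt exon, chr3:60418605-60418658, plus strand: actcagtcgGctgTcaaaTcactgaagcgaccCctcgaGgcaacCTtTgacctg
Mbnl2 54 nt exon, chr14:120794934-120794987, plus strand: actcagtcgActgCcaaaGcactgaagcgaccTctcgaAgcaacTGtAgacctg
Celf1 76 nt exon form, chr2:90846777-90846852, plus strand: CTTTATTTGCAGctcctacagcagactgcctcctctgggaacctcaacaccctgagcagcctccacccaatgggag
Ptbp2 34 nt exon, chr3:119427530-119427563, minus strand: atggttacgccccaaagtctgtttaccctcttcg
The 54 nt exons are identical at 46 bases, 85.2% of their length. The lengths of the 111 nt exon, the 54 nt exons and the 12 nt extension of Celf1 are multiples of 3, so each keeps the reading frame, whereas skipping the 34 nt exon of Ptbp2 shifts it. The Celf1 extension itself ends in CAG, the letters that usually close an intron.

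As a check of the labels, the authors' deposited table gives Sap30bp at 141.28 RPKM (reads scaled to gene length and library size) in rescue, 18.6 in knockdown and 33.59 in control of the exon-3-containing line. It gives 196.49 RPKM in rescue, 21.71 in knockdown and 40.03 in control of the exon-3-lacking line, also in the authors' deposited table. At the RNA level the knockdown was thus partial, and rescue stood well above control in both lines. Of 12 neuroblastoma markers, 10 had a mean of at least 1 RPKM, with summed levels of 970.52 to 1410.69 over the groups, while Th was near 0. Of 10 fibroblast markers 3 reached that mean (summed 87.14 to 178.52 RPKM, mainly Fbln1 and Acta2), as did 2 of 8 glial markers (7.18 to 10.5) and 1 of 6 immune markers (0.88 to 2.73). The lines themselves differed in such genes: Acta2 was at 40.91 RPKM in exon-3-containing and 1.07 RPKM in exon-3-lacking controls, and the part of this in the results was not tested. The read depth behind the values is unknown, and 182904 to 207284 events had a value per library.

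All 10 regulators were expressed, and none passed the authors' test in any comparison. In the authors' deposited table, Ptbp1, the general repressor of neuronal exons, ranked first in every group, from 153.45 to 220.36 RPKM. Celf1, a regulator of splicing, translation and decay that binds GU-rich RNA, ranked second in every group at 78.88 to 100.38 RPKM in the authors' deposited table. Because the cells are measured in bulk, fewer cells expressing a gene and less RNA per cell cannot be told apart.

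Below these, Ptbp2 lay at 50.97 to 78.89 RPKM, Mbnl1 at 50.0 to 61.5 RPKM and Rbfox2 at 47.55 to 62.66 RPKM in the authors' deposited table. Their ranges overlapped, and with 1 value per group in the table no spread between replicates is at hand to separate neighbours. Mbnl2 followed at 32.6 to 43.73 RPKM and Elavl3, a neuronal member of the ELAV family, at 24.89 to 31.42 RPKM in the authors' deposited table. Lowest were Srrm3 at 11.02 to 16.2 RPKM, Nova1 at 7.82 to 13.3 RPKM and Srrm4 at 6.93 to 10.78 RPKM, again from the authors' deposited table. Thus the regulators of microexons and the neuronal factor NOVA1 were present at a small part of the level of Ptbp1, and the ranges of these last 3 genes overlapped.

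**Figure D1:**
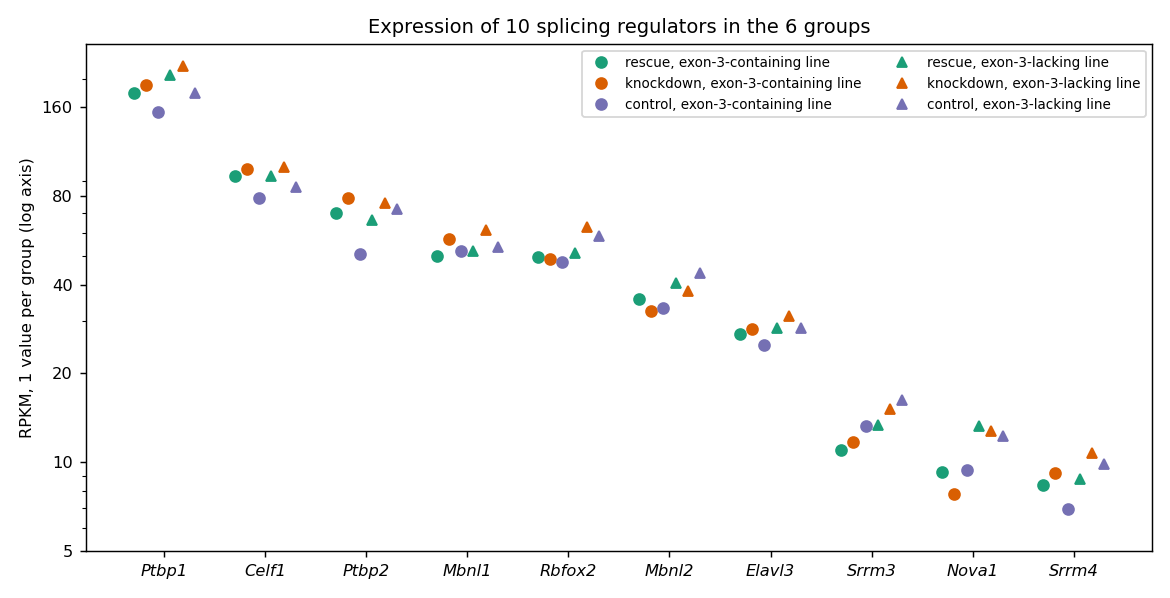
RPKM of the 10 regulators from the authors' deposited table (log axis, 1 value per group, no replicate spread), circles for the exon-3-containing and triangles for the exon-3-lacking line, with rescue, knockdown and control in colour. Ptbp1 lies between 153.45 and 220.36 RPKM and Srrm4 between 6.93 and 10.78 RPKM.

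Knockdown against control called 0 of the 10 regulators at an FDR under 0.05 in both lines with one sign in the authors' edgeR-based table, where 1.57% of all tested genes were called. A combined p under 0.05 was reached by 0 of them, against 21.7% of all genes. Calling by the combined p of both lines also gave 0 of 10, against 10.6% of all genes. Single lines gave 0 calls as well, against 3.68% of all genes in the exon-3-containing and 2.26% in the exon-3-lacking line. In these lines 1 and 0 regulators had an unadjusted p under 0.05, against 13.6% and 11.9% of all genes. Averaged over the lines, 7 of 10 log2 fold changes were positive and the median was 0.14, where the median over all genes was -0.00.

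Ptbp2 was the gene with p under 0.05. The authors' deposited table lists it for the exon-3-containing line at 70.11 RPKM in rescue, 78.89 in knockdown and 50.97 in control. For the exon-3-lacking line the authors' deposited table lists 66.17 RPKM in rescue, 75.79 in knockdown and 72.05 in control. The exon-3-containing control thus stood below the other 5 groups. Its log2 fold change for knockdown against control in the authors' deposited table was 0.58 in the exon-3-containing line (p 0.009474, FDR 0.142) and 0.00 in the exon-3-lacking line (FDR 1). The difference between these effects, 0.58 with an interval from -0.05 to 1.20, did not pass (p 0.068, adjusted p 1, from the z-values of the authors' table). Differences between the lines called 0 of the 10 regulators for the knockdown and for the rescue effect, against 0.00928% of all genes in each. An unadjusted p under 0.05 was reached by 0 of the 10, against 1.2% and 1.4% of all genes.

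For Ptbp1, the repressor that acts on Ptbp2, knockdown stood above control in both lines of the authors' deposited table, at 189.6 and 153.45 RPKM in the exon-3-containing and 220.36 and 178.67 RPKM in the exon-3-lacking line. The log2 fold changes were 0.25 and 0.26 (FDR 0.745 and 0.789 in the authors' deposited table), with intervals of -0.19 to 0.68 and -0.18 to 0.69 that include both 0 and a rise of over 0.6. Celf1 gave 0.24 and 0.13, and Srrm4 0.36 and 0.22, in the exon-3-containing and exon-3-lacking lines of the authors' deposited table. The standard errors implied by the authors' p-values were 0.20 to 0.27 for the 10 genes in either line. The intervals of these knockdown changes included 0 in both lines, except that of Ptbp2 in the exon-3-containing line. There the log2 fold change was 0.58 with an interval from 0.14 to 1.02, and it did not pass the authors' FDR (0.142).

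Rescue against knockdown gave 0 calls in either line (0.00464% of all genes were called in the exon-3-containing and 0.0232% in the exon-3-lacking line), and 0 regulators had an unadjusted p under 0.05 in the authors' deposited table. Signs were mostly negative, in 8 of 10 and 9 of 10 genes, with medians of -0.07 and -0.13, where the medians over all genes were -0.01 and -0.04. Srrm4 had the most negative value, -0.43 in the exon-3-lacking line (FDR 0.832 in the authors' deposited table), where it lay at 8.77 RPKM in rescue and 10.78 in knockdown. Rescue and knockdown-against-control share the knockdown libraries, so opposite signs between these comparisons are no separate evidence. Rescue against control gave 0 calls too, against 2.27% and 0.924% of all genes in the exon-3-containing and exon-3-lacking lines. Ptbp2, with a log2 fold change of 0.48 (FDR 0.383) in the authors' deposited table for the exon-3-containing line, was the 1 regulator with an unadjusted p under 0.05. Over all genes 10.5% had such a p in that line and 8.2% in the exon-3-lacking line.

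**Figure D2:**
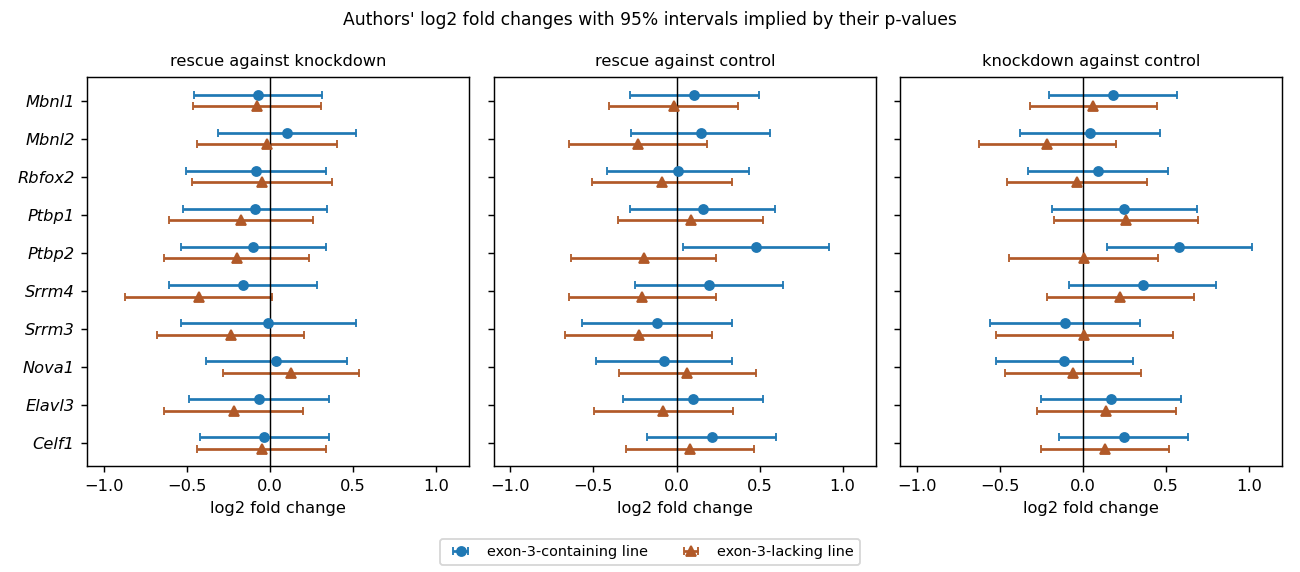
Log2 fold changes of the authors' deposited table for rescue against knockdown, rescue against control and knockdown against control, in the exon-3-containing (blue circles) and exon-3-lacking (brown triangles) lines; bars are 95% intervals implied by the authors' p-values. All intervals but those of Ptbp2 in the exon-3-containing line for both contrasts against control include 0.

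Between the lines, the 10 regulators all lay lower in exon-3-containing than in exon-3-lacking control cells. The median log2 fold change was -0.35 in the authors' deposited table, where all genes had a median of -0.01. None was called, against 3.73% of all genes, while 4 had an unadjusted p under 0.05, against 11.5% of all genes. In knockdown and rescue cells, contrasts added after the values had been seen, 8 of 10 were lower in each, with medians of -0.20 and -0.06, and 0 were called against 2.9% and 3.29% of all genes. Nova1, which encodes a neuronal splicing regulator, had the most negative value of the 10 in rescue cells and is not typical of them. In the authors' deposited table its log2 fold change there was -0.58 (FDR 0.111), at 9.27 RPKM in the exon-3-containing and 13.3 RPKM in the exon-3-lacking line. In knockdown cells its log2 fold change was -0.50 (FDR 0.252), at 7.82 and 12.78 RPKM in these lines.

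Nova1 and Srrm4 had the widest ranges over the 6 groups, and the genes most like them were found by Pearson's r of log2(RPKM + 1) over these groups among 11964 genes. For Nova1 they were Xkr5 (r 0.9908), Tomm20 (0.9907) and Rilpl1 (0.9859). For Srrm4 they were Cdc16 (r 0.9961), Zcchc8 (0.9957) and Selenoi (0.9931). With 6 points that share their libraries, such values are a description of these groups alone.

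Few splicing events of the regulators passed a test. For each event the authors' table gives a percent per library, which is the share of transcripts with the exon, splice site or intron in question. The 29 testable events, measured in each of the 12 libraries with a mean of 2% to 98%, were 12 exons, 9 alternative 3′ splice sites and 8 introns in 7 genes. Mbnl1 had 6, Rbfox2 and Ptbp2 5 each, Mbnl2 and Celf1 4 each, Nova1 3 and Elavl3 2, while Ptbp1, Srrm3 and Srrm4 had 0. Of the remaining events, 104 were near 0% or 100%, 71 lacked a value in some libraries and 27 had no value.

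In knockdown against control, averaged over both lines, 1 of the 29 events was called at an adjusted p under 0.05 and at least 15 percentage points (limma, Benjamini-Hochberg over all 28980 tested events), where 1.48% of all events were called. A further 3 passed the adjusted p with a smaller difference, which makes 4 of 29, where 3.86% of all events passed it at any size. At an unadjusted p under 0.05 there were 5 of 29, and 19.1% of all events. These 4 events lay in 2 genes, Mbnl1 and Celf1. Among them, the 7929 nt intron of Mbnl1 passed the 2% filter for testing only through its knockdown libraries, so its place in this count depends on that filter.

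MBNL1 is a regulator of fetal-to-adult splicing transitions that is sequestered by expanded CUG repeats in myotonic dystrophy, and its 54 nt exon encodes part of a signal for nuclear localisation and is autoregulated. Inclusion of this exon in the exon-3-containing line was 62.64% and 78.26% in rescue, 71.43% and 66.40% in knockdown, and 48.24% and 50.54% in control. For the exon-3-lacking line the values were 49.02% and 56.57% in rescue, 61.15% and 62.19% in knockdown, and 45.36% and 53.05% in control. Every knockdown library thus stood above every control library, and rescue overlapped knockdown in the exon-3-containing line but control in the exon-3-lacking line. The share of all events whose libraries separate in this way was not counted, here or for the events below, so such separations are description only.

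Over both lines the 54 nt exon of Mbnl1 rose by 16.00 points in knockdown (SE 3.78, adjusted p 0.0428, limma with Benjamini-Hochberg). By line the differences were 19.53 points (adjusted p 0.138) in the exon-3-containing and 12.47 points (adjusted p 0.443) in the exon-3-lacking line, each with an SE of 5.35. The call was close to its threshold: it was lost when any 1 of 10 of the 12 libraries was left out (all but the 2 exon-3-containing rescue libraries), with differences of 14.07 to 17.92 points and adjusted p-values of up to 0.162. Without the first exon-3-lacking control library the difference was 14.07 points (adjusted p 0.162).

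Rescue minus control for this exon was 21.06 points (adjusted p 0.339) in the exon-3-containing and 3.59 points (adjusted p 1) in the exon-3-lacking line, each with an SE of 5.35. Rescue minus knockdown was 1.54 points and -8.88 points in these lines (SE 5.35 each), and the difference between them, 10.41 points (SE 7.56, adjusted p 0.959), did not pass. Without exon-3-containing rescue replicate 2 the value of that line was -6.28 points (SE 5.50), the opposite sign. Between the lines in rescue cells, exon-3-containing minus exon-3-lacking, the difference was 17.66 points with an SE of 5.35 (adjusted p 0.533, limma with Benjamini-Hochberg), a contrast added after the values had been seen. The authors' deposited table of differential events calls this exon in 3 comparisons: knockdown against control (18.88 points) and rescue against control (20.9 points) in the exon-3-containing line, and between the lines in rescue (17.29 points). In those comparisons it calls 0.577%, 0.245% and 0.146% of all events with values. For the exon-3-lacking line it lists 12.12 points in knockdown against control, with no call, where 0.447% of events were called.

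The 111 nt exon lies upstream of the 54 nt exon in Mbnl1. Its inclusion in the exon-3-containing line was 31.23% and 29.09% in rescue, 41.69% and 33.53% in knockdown, and 20.13% and 24.57% in control. The exon-3-lacking line gave 27.43% and 21.24% in rescue, 26.07% and 34.44% in knockdown, and 12.69% and 18.77% in control. Rescue lay between knockdown and control in the exon-3-containing line, and in the exon-3-lacking line it overlapped knockdown and stood above control.

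The 111 nt exon differed by 14.89 points between knockdown and control (SE 3.46, adjusted p 0.0396), just under the 15 points needed for a call. The differences by line were 15.26 and 14.53 points (SE 4.90 each, adjusted p 0.200 and 0.302) in the exon-3-containing and exon-3-lacking lines, and the difference between them was 0.74 points (SE 6.92). When 1 library was left out the difference ranged from 12.8 to 16.98 points, and in 10 of the 12 such fits the adjusted p was over 0.05, up to 0.16. Without exon-3-lacking knockdown replicate 1 or exon-3-containing knockdown replicate 2 it was called (16.98 and 16.93 points, adjusted p 0.0315 and 0.0483). Rescue minus knockdown was -7.45 and -5.92 points (SE 4.90 each), neither past the threshold (adjusted p 0.840 and 0.812). The authors' deposited table calls the 111 nt exon in knockdown against control of the exon-3-containing line (15.08 points) and not of the exon-3-lacking line (13.81 points).

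The intron of 7929 nt that spans the 111 nt exon of Mbnl1 was retained little and is named here after its values were seen. In the exon-3-containing line its retention was 1.02% and 0.50% in rescue, 4.71% and 5.76% in knockdown, and 0.91% and 2.35% in control, and in the exon-3-lacking line it was 0.46% and 1.08% in rescue, 3.63% and 2.31% in knockdown, and 0.38% and 1.06% in control. Knockdown stood above rescue and control in both lines. The mean over all 12 libraries passed the 2% filter for testing only through the knockdown libraries. The adjusted p-values that follow are therefore not independent of that filter, and the sizes serve as description. The difference between knockdown and control was 2.93 points (SE 0.71, adjusted p 0.0474; 0.0468 to 0.18 without 1 library, and over 0.05 in 11 of those 12 fits), and rescue minus knockdown in the exon-3-containing line was -4.48 points (SE 1.01, adjusted p 0.380).

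The other 2 alternative exons of Mbnl1 near its 3′ end, of 36 and 95 nt, were mostly included. The 36 nt exon was at 90.62% and 94.18% in rescue, 81.77% and 91.63% in knockdown, and 80.65% and 83.38% in control cells of the exon-3-containing line. Rescue was 10.39 points above control there (SE 3.72, adjusted p 0.498), and the exon-3-lacking line ranged from 82.43% to 91.86% over its 6 libraries. The 95 nt exon ranged from 85.16% to 96.66% over the 12 libraries.

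The 54 nt exon of Mbnl2, whose sequence is given above beside that of Mbnl1, lacked a value in 1 library and was not tested. It was included in 38.18% and 50.65% in rescue, 57.38% in the 1 knockdown library with a value, and 42.50% and 43.82% in control cells of the exon-3-containing line. Values of the exon-3-lacking line were 37.93% and 53.33% in rescue, 45.08% and 51.35% in knockdown, and 41.77% and 42.28% in control. The 3 knockdown values stood above the 4 control values, and the rescue values spread across both. The 36 nt exon of Mbnl2 was mostly skipped (3.71% to 11.93%), unlike its Mbnl1 counterpart, and the 95 nt exon was at 72.82% to 90.49%.

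CELF1 opposes MBNL proteins on a number of muscle exons. Its 12 nt extension at a 3′ splice site, singled out after its values were seen, was used in 74.35% and 78.07% of transcripts in rescue, 70.10% and 73.27% in knockdown, and 81.51% and 79.61% in control cells of the exon-3-containing line. Use in the exon-3-lacking line was 81.53% and 83.81% in rescue, 73.66% and 72.63% in knockdown, and 82.59% and 80.65% in control. All 4 knockdown libraries stood below all 4 controls; rescue overlapped control in the exon-3-lacking line and lay between knockdown and control in the exon-3-containing line.

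Use of this extension differed by -8.68 points between knockdown and control (SE 1.87, adjusted p 0.0292), with -8.88 and -8.48 points in the exon-3-containing and exon-3-lacking lines (SE 2.65 each, adjusted p 0.166 and 0.261). Of the 12 fits without 1 library, 6 had an adjusted p over 0.05, up to 0.125. Rescue minus knockdown was 4.53 points in the exon-3-containing line (adjusted p 0.820) and 9.53 points in the exon-3-lacking line (adjusted p 0.316; SE 2.65 each). Of the 3 other tested events of Celf1, the 186 nt exon (91.35% to 96.91%) had the largest difference, -2.22 points (SE 1.26, adjusted p 0.380).

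PTBP2 is the neuronal counterpart of PTBP1, and skipping of its 34 nt exon, which PTBP1 promotes, leads to decay of the transcript. The exon was included in 77.09% and 74.14% in rescue, 82.88% and 79.72% in knockdown, and 87.70% and 86.22% in control cells of the exon-3-containing line. Inclusion in the exon-3-lacking line was 85.56% and 73.02% in rescue, 79.87% and 72.92% in knockdown, and 77.86% and 86.37% in control. The groups of the exon-3-containing line did not overlap, with rescue lowest, whereas those of the exon-3-lacking line did.

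For this Ptbp2 exon the knockdown difference was -5.69 points (SE 3.03, adjusted p 0.345), and rescue minus control in the exon-3-containing line was -11.35 points (SE 4.28, adjusted p 0.530). The 425 nt intron beside it was retained in 18.45% and 21.48% in rescue, 14.46% and 19.21% in knockdown, and 8.58% and 9.09% in control cells of the exon-3-containing line. Retention in the exon-3-lacking line was 12.60% and 15.91% in rescue, 11.04% and 19.30% in knockdown, and 10.94% and 9.76% in control. Each rescue and knockdown library stood above the controls of its line, a separation whose share over all events was not counted. The differences were 6.41 points for knockdown over both lines (SE 2.57, adjusted p 0.203) and 11.13 points for rescue minus control in the exon-3-containing line (SE 3.63, adjusted p 0.477), neither past the threshold.

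**Figure D3:**
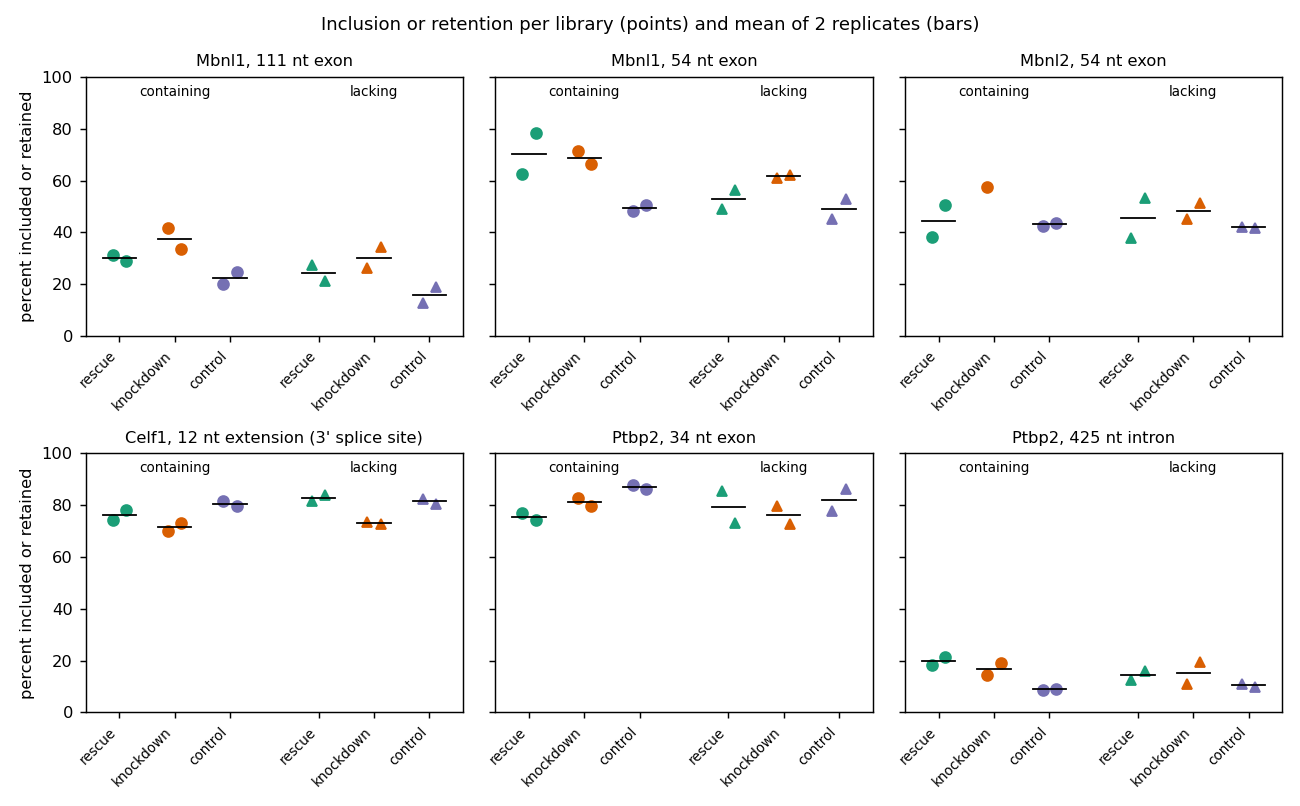
Percent inclusion (exons), use (splice site extension) or retention (intron) of 6 events, a point per library and a bar at the mean of both replicates; within each line, rescue is left of knockdown and knockdown left of control. For both Mbnl1 exons every knockdown library lies above the controls of its line, and for the Celf1 extension every one lies below. The share of all events that separate in this way was not counted.

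RBFOX2 reads the motif UGCAUG. Its 40 nt exon ranged from 76.41% to 90.85% and its 12 nt splice site extension from 44.87% to 59.18%, with knockdown differences of 4.27 points (SE 2.72) and 4.36 points (SE 3.20; adjusted p 0.442 and 0.513). The 93 nt exons of Rbfox2 were included in at least 97.5% in every library, and its 43 nt exon in at most 1.79% of transcripts in the 9 libraries with a value. These exons stood near one extreme in all groups, unlike the 40 nt exon.

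ELAVL3 binds U-rich RNA in neurons. Its 21 nt splice site extension was used in 53.29% and 55.00% in rescue, 46.38% and 49.21% in knockdown, and 48.78% and 43.50% in control cells of the exon-3-containing line. Cells of the exon-3-lacking line used it in 49.57% and 44.93% in rescue, 54.28% and 56.07% in knockdown, and 54.30% and 58.39% in control. Rescue was above knockdown in the first of these lines and below it in the second. The difference of the rescue effects was 14.28 points (SE 5.68, p 0.0287), which did not pass after adjustment (adjusted p 0.933). The 39 nt exon of Elavl3 was at 97.02% to 100.0%.

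NOVA1 binds YCAY clusters in neuronal transcripts. Its 72 nt exon was at 97.77% to 100.0%, too near 100% to be tested, and its 1 tested exon at 5.87% to 13.40% with a knockdown difference smaller than its SE of 2.01 points (adjusted p 0.650). The 34 nt exon of Ptbp1, whose skipping makes an unproductive transcript, had no value in any library. Srrm3 and Srrm4 had no tested event: their exons and introns were near 0% or 100%, or lacked values in some or all libraries.

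Short introns are of interest because SAP30BP is known to act on them. Of 94 introns of the regulators 10 were under 200 nt, and 5 of these had a value in all libraries. Retention in these 5 never exceeded 1.56%, and their knockdown-minus-control differences ran from -0.05 to 0.40 points with a median of 0.05, where 10307 introns under 200 nt of all genes had a median of 0.44 points. These sets are unlike in level: the 5 had mean retention of at most 0.924%, while 60.5% of the 10307 had a mean under 2%. The 5 were in Rbfox2, Ptbp1, Ptbp2 and Elavl3.

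**Figure D4:**
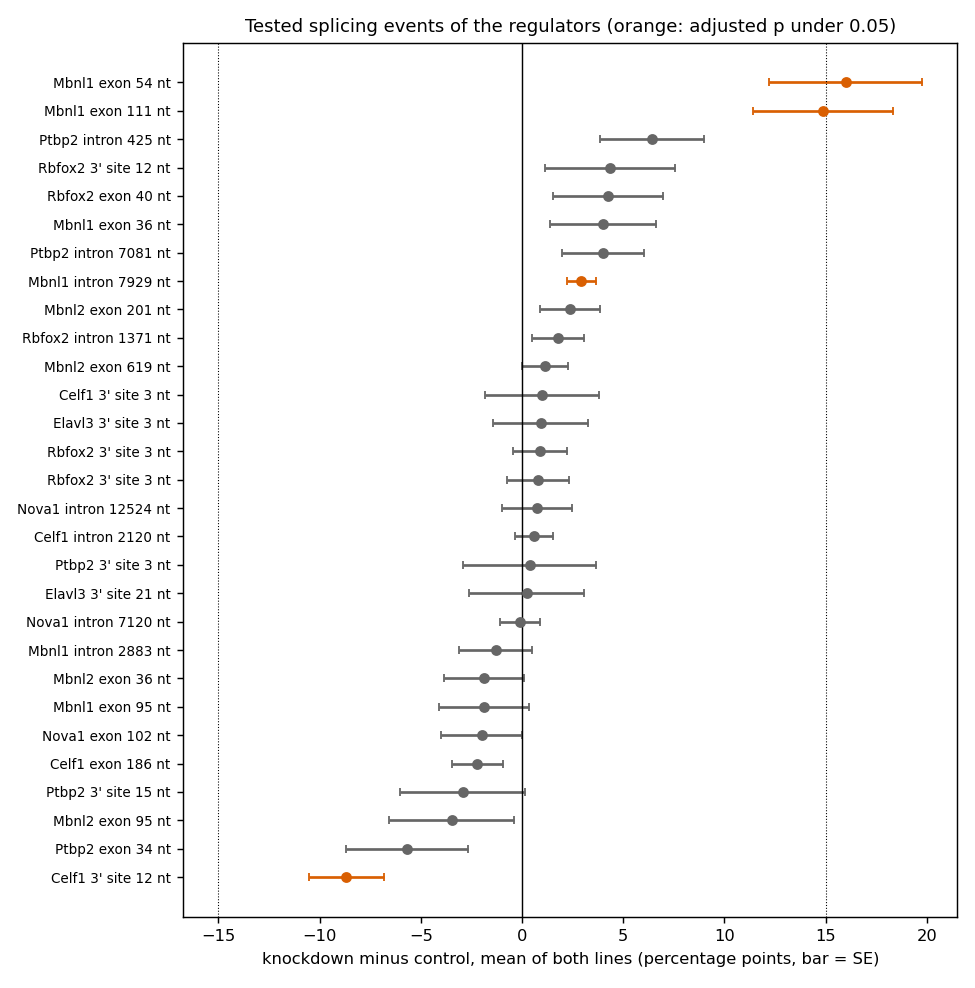
Knockdown-minus-control difference in percentage points, mean of both lines, with its SE, for the 29 tested events; dotted lines mark 15 points and orange marks an adjusted p under 0.05 (limma). The 54 nt and 111 nt exons of Mbnl1 lead at 16.00 and 14.89 points, and the Celf1 extension is lowest at -8.68 points.

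In each single line, 0 of the 29 events were called for knockdown against control (0.338% of all events in the exon-3-containing and 0.0207% in the exon-3-lacking line). In limma 5 and 4 had an unadjusted p under 0.05, against 13.5% and 10.5% of all events. With the replicate number as a block the regulators also had 0 calls, while the calls over all events were 273 against 98 in the exon-3-containing and 103 against 6 in the exon-3-lacking line. Rescue against knockdown called 0 as well (0% and 0.00345% of all events), with 1 and 2 at an unadjusted p under 0.05, against 6.8% and 8.6%. Rescue against control called 0 (0% and 0.00345%), with 5 and 1 at an unadjusted p under 0.05, against 8.4% and 5.6% of all events. The differences between lines of the knockdown and rescue effects called 0 (0% and 0.00345% of all events). Of the regulators 0 and 1 event had an unadjusted p under 0.05, against 3.2% and 5.3% of all events. Set directly against each other, the lines gave 0 calls among the 29 events in rescue, knockdown and control (0.00345%, 0% and 0% of all events). An unadjusted p under 0.05 was reached by 2, 1 and 2, against 7.1%, 6.4% and 4.2% of all events. At this number of libraries, standard errors of up to 5.35 points in a line mean that differences near 10 points in mid-range events could not be separated from the error.

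Levels of 34 further tissue splicing regulators were compared in the same way, 30 of which had a test in the authors' deposited table. Knockdown called 0 of 30 in both lines, against 1.57% of all genes, and 5 had a combined p under 0.05, against 21.7% of all genes. The median log2 fold change was 0.04. Celf5, a neuronal CELF protein, was at 13.54, 11.46 and 17.57 RPKM in rescue, knockdown and control cells of the exon-3-containing line and at 11.06, 13.14 and 16.88 RPKM in those of the exon-3-lacking line in the authors' deposited table. Its mean log2 fold change in knockdown was -0.56 (implied SE 0.16), with a combined FDR of 0.0098, though it was called in neither line alone. By that combined FDR 10.6% of all genes passed. Between the lines, Rbm20 was called lower and Msi2 higher in exon-3-containing knockdown cells, of 30 genes tested, where 2.9% of all genes were called. Rbm20 lay near the floor, at no more than 0.50 RPKM in any group. Rbm20, a splicing regulator of heart muscle, was at 0.08 RPKM in the exon-3-containing and 0.50 RPKM in the exon-3-lacking line (log2 fold change -1.73, FDR 0.0107), and Msi2, an RNA-binding protein of the Musashi family, at 42.93 and 29.63 RPKM (0.69, FDR 0.0212), all in the authors' deposited table. In control cells Rbm20 was called too, at 0.07 RPKM and 0.34 RPKM in these lines (-1.82, FDR 0.00297, in the authors' deposited table), against 3.73% of all genes. In rescue cells 0 of 30 were called, against 3.29% of all genes, and 4 had an unadjusted p under 0.05, against 11.9%. Rescue against knockdown and rescue against control called 0 of 30 in each line, where 0.00464% to 2.27% of all genes were called. An unadjusted p under 0.05 was reached by 0 to 3 of the 30, and by 1.3% to 10.5% of all genes.

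Exons of genes known as targets of these proteins were examined by list, each list naming genes, so that a tested exon need not be the regulated one. In 42 target genes 91 cassette exons were tested, and 6 were called in knockdown, where 2.02% of all 6738 tested cassette exons were called. By list the calls were 1 higher and 1 lower of 13 exons for PTBP1, 1 higher and 2 lower of 27 for MBNL, 1 lower of 8 for NOVA, and 0 of 23 for SRRM4 and SRRM3, 0 of 17 for RBFOX, 0 of 2 for CELF and 0 of 2 for ELAVL (limma). At an unadjusted p under 0.05 there were 4 exons for PTBP1, 13 for MBNL, 2 for NOVA, 7 for SRRM4 and SRRM3, 5 for RBFOX, and 0 for CELF and for ELAVL. Over all lists these were 31 of 91, or 34.1%, against 22.2% of all tested cassette exons.

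Among the MBNL targets, a 42 nt exon of Numa1, which encodes a spindle protein, was included in 66.74% and 67.42% in rescue, 53.25% and 53.20% in knockdown, and 84.54% and 84.26% in control cells of the exon-3-containing line. Cells of the exon-3-lacking line had 80.18% and 80.15% in rescue, 73.20% and 66.65% in knockdown, and 87.17% and 85.28% in control. It fell by 23.74 points (SE 2.05, adjusted p 0.00103), and rescue lay between knockdown and control in each line. A 39 nt exon of the kinesin gene Kif13a fell by 21.41 points (SE 4.64, adjusted p 0.0306).

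Of the PTBP1 targets, a pair of 76 nt exons of the tropomyosin gene Tpm1 moved in opposite directions, by 22.37 and -21.91 points (SE 3.80 and 3.40, adjusted p 0.0118 and 0.00839). The 12 nt microexon of the NOVA target Agrn, which encodes agrin, fell by 18.50 points (SE 3.38, adjusted p 0.0148). The Numa1 exon was called under all 17 alternatives. Leaving out the first control library of either line left 2 of the 6 target exons called.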

How the data were processed

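Libraries of polyA RNA were made from 12 samples in 6 groups of 2. The authors' deposited inclusion table on mm9 gives a percent per event and library, made with vast-tools. Its version and any minimum of reads were not given in the sources used here. Their expression table as deposited gives 1 RPKM per group, log2 fold changes, p-values and FDR values, with Salmon 0.14.1 and edgeR named in the submitters' processing notes. The authors' deposited table of differential events gives differences in percentage points and calls. Entries not read as measurements, such as the quality scores deposited beside the percentages, were not tested.

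Percentages were fitted with limma 3.58.1 (R 4.3.3) on 6 group means with trended, robust empirical Bayes variance, over 28980 events measured in each of the 12 libraries with a mean of 2% to 98%. Adjustment was by Benjamini-Hochberg over all of them, and a call needed an adjusted p under 0.05 and at least 15 points. The method was tested on simulated percentages. For expression, the authors' FDR under 0.05 was used; standard errors were taken as the log2 fold change over the z of the authors' p, with 95% intervals of 1.96 standard errors, and differences between lines were tested from those z. The combined p is Stouffer's over both lines. The design had provided for counts per library, and the tests the units allow were used instead. The depth is unknown, so no counting interval was computed, and p-values measure the spread between the deposited replicates.

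The 10 regulators, the gene lists and the tests were chosen with earlier results of these data known. Named were all 10 genes, events that were called, in the authors' list or with an unadjusted p under 0.05 and at least 10 points, and known regulated exons by length; other events are named as chosen after their values were seen. Replicate numbers did not meet the rule for pairing, so no block was used in the fit reported. Exon sequences were matched by gene and by the lengths of the exon and its flanking introns (Celf1 by exon length). Alternatives tried were a logit scale, missing values, filters, the size threshold, a replicate block, leaving out libraries, pseudocounts of 1 and 0.1, and a floor of 1 RPKM. Values of some genes in the marker and target lists are not reported here.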

Additional observations from a re-analysis of the deposited data

How the results depend on the processing

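Over the 9 splicing comparisons, 141 of 153 counts of regulator events under alternatives equalled the reported count. The exceptions were all in knockdown against control averaged over both lines, where 1 event was called: the count was 0 on a logit scale, 0 with events present in at least 10 of 12 libraries, 0 with no filter on the mean, 2 at 10 points, and 0 to 1 when leaving out one library. The adjusted p of the 54 nt Mbnl1 exon was 0.0935 on the logit scale, 0.0523 with at least 10 of 12 libraries and 0.331 with no filter, which tests more events. Without exon-3-lacking knockdown replicate 1 or exon-3-containing knockdown replicate 2 the 1 call was the 111 nt exon of Mbnl1. Of 1071 values for single events under alternatives, 13 lost and 3 gained a call, and 7 uncalled values, of the 36 and 54 nt exons of Mbnl1 and the 34 nt exon and 425 nt intron of Ptbp2, changed sign by more than their SE without 1 library. Expression calls stayed at 0 in each comparison under each alternative run, but the ratios of RPKM with a pseudocount carry no test and could not change a call. Of the single-gene values, 176 moved by less than their implied SE and 4 by more. Those 4 were all of Rbfox2, where the ratio of RPKM differed from the authors' fold change under either pseudocount.

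With the replicate number as a block, the count for the regulators was 1, and 514 against 430 events of all genes were called for both lines, 103 against 6 in the exon-3-lacking and 273 against 98 in the exon-3-containing line. The differences between replicate 1 and replicate 2 of a group, over the tested events, were correlated between groups. Their r was 0.0417 to 0.3102 over 15 pairs of groups, 12 of them over 0.1. All 6 pairs of groups within a line were over 0.1 (0.1487 to 0.3102), and the 3 under it lie between lines. No label names a shared batch, and not every pair was over 0.1, so the reported fit has no block. Over all genes, the 430 events became 391 on the logit scale, 505 with at least 10 of 12 libraries, 55 with no filter, 716 at 10 points and 168 to 577 when leaving out one library. The cause of these shifts was not tested. For the target exons, chosen after seeing the data for such a check, the 6 calls became 1 with no filter, 10 at 10 points and 2 to 7 when leaving out one library. Depth is unknown, so how far it limits low values cannot be given.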
